A study of Equus caballus with 45 samples.

Results

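The genes described here are 10 markers by which macrophages are recognised and which serve their scavenging, namely CD14, CD68, CD163, MRC1, MSR1, MARCO, CSF1R, MS4A7, CD80 and CD86. They were chosen by symbol, and all 10 were found among the 20881 protein coding genes listed in both count tables. Their levels are given in 11 libraries of horse macrophages, with 34 libraries of stromal cells as the contrast (11 of synoviocytes, 11 of chondrocytes and 12 of bone marrow mesenchymal stromal cells, MSC, left untreated, given the TLR3 or the STING agonist named below, or labelled CpG, 3 libraries each). Each level is in CPM, the reads counted on a gene per 1000000 reads counted on all genes of that library. Since a longer gene collects more reads, CPM was compared between libraries and not between genes.

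The study asked how factors secreted by activated MSC act on cells of the joint. The macrophages came from the blood of 1 horse and were grown out of mononuclear cells with human macrophage colony-stimulating factor (M-CSF) at 30 ng/ml for 5 days. Cells were given IL-1β plus TNF-α, for which the methods state 20 ng/ml. The labels state 10 ng/ml for the macrophages, 20 ng/ml for the synoviocytes and no concentration for the chondrocytes. Conditioned medium (CM) of MSC was given at 1 part to 3 parts of the cells' own medium for 24 hours. Cells were collected after a further 24 hours in fresh medium. The MSC that made the medium were resting or activated. TLR-MSC-CM came from MSC given poly I:C, an agonist of the RNA sensor TLR3. STING-MSC-CM came from MSC given 2′3′-cGAMP, the messenger that switches on the STING pathway. Both agonists were given for 2 hours, at 10 ng/ml by the labels and 10 μg/ml by the methods. Each kind of medium came from the MSC lines PC, ORC and AG1, giving 3 macrophage libraries per medium. As the methods give 1 horse for the macrophages, these libraries are taken to differ in the donor of the medium only. The donors of MSC were 3 to 4 years old according to the methods. Further single libraries held macrophages with the cytokines only and with no addition. Their labels also name ORC, although they received no MSC medium, and what ORC stands for there is not stated. The sequenced MSC were of donors PC, 99 and 92, so ORC and AG1 have no MSC libraries. The p-values below therefore measure the spread between media of 3 MSC donors on the cells of 1 horse.

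Macrophages are phagocytes that arise from monocytes or from the embryo, and their survival and growth depend on signals through CSF1R, the receptor for M-CSF. They clear modified lipoproteins, haemoglobin complexes, glycoproteins, bacteria and dead cells through scavenger and lectin receptors, several of which are taken as marks of a tissue-repairing state. They also show antigen to T cells, for which CD80 and CD86 give the second signal. In the synovium, macrophages of the lining and sublining are a source of inflammatory mediators in osteoarthritis.

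Total counts ran from 23525704 to 40403096 per macrophage library and from 24650628 to 54103873 per stromal library, so that 3 counts, taken as the floor of detection, stood for at most 0.128 CPM. The cultures expressed macrophage markers. Of 20 other macrophage and monocyte markers, 18 were higher and 1 lower than in synoviocytes, with the same numbers against chondrocytes. PTPRC, the pan-leukocyte antigen CD45, lay between 1085 and 1576 CPM. This contrast does not single out macrophages. Of the markers tested against synoviocytes, 14 of 14 T and NK cell, 8 of 8 dendritic cell and 6 of 7 osteoclast markers were higher too. The summed level of 12 stromal markers was 6.55 to 38.5 CPM in the macrophage libraries. Lymphocyte RNA was present, with CD3E of the T cell receptor complex at 60.4 to 134 CPM and a summed level of 780 to 1172 CPM over 14 T and NK cell markers, while 7 B cell markers summed to 9.9 to 16.3 CPM. The library with TLR-MSC-CM of donor AG1 stood apart in them. Its CD3E was 134 CPM against 60.4 to 87.3 CPM in the other 10 macrophage libraries, it lay above all of these for 10 of the 14 T and NK cell markers, and the sum of 13 of them without CD4, which macrophages may also carry, was 949 CPM against 556 to 652 CPM. The same library had the lowest CD163, MSR1, MARCO and CSF1R of all 11, so results that rest on it are given with and without it. The part of lymphocyte RNA in those levels was not tested. In bulk RNA, fewer cells of a type and less RNA per cell cannot be told apart, and this holds for every level below.

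Every one of the 10 markers was higher in macrophages than in either stromal joint cell when both had received resting MSC-CM (edgeR quasi-likelihood test, adjusted p between 2.03e-10 and 0.0011). According to the methods the synoviocytes and chondrocytes, like the macrophages, came from 1 horse. The 3 libraries of each cell type differ in the donor of the medium, so these p-values do not measure the spread between horses. Of all 15599 genes tested, 36.6% were called higher in macrophages than in synoviocytes and 36.6% higher than in chondrocytes. The median log2 fold change of the markers against synoviocytes was 12.9. The markers differed in how far the stromal cells lacked them. MS4A7, a 4-pass membrane protein of mature macrophages, had 1 count in all 34 stromal libraries together, in a single synoviocyte library. CD163, the receptor for haptoglobin-haemoglobin complexes, had 11 counts, all of them in 4 of the synoviocyte libraries. MRC1, MSR1, CSF1R and CD86 had between 33 and 45 counts in all 34 stromal libraries together, with no stromal library above 0.304 CPM. Against chondrocytes, CD163, MSR1 and MS4A7 had 0 counts in the resting medium, and with the floor of 3 counts over that group CD163 was at least 9790-fold, MSR1 at least 11300-fold and MS4A7 at least 3600-fold higher in macrophages.

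The other 4 markers were detected in stromal cells. CD14, the lipopolysaccharide co-receptor, lay between 0.14 and 2.29 CPM there and between 16.6 and 32.6 CPM in macrophages. With resting medium the ratio of macrophages to synoviocytes was 28.1 (95% counting interval 22.7 to 35.3) and that to chondrocytes 26.2 (21.4 to 32.4). CD68, a lysosomal glycoprotein, had a median of 13.3 CPM in stromal libraries, and the ratio was 266.0 (252.0 to 282.0) against synoviocytes. CD80, the inducible ligand of CD28 and CTLA4, had a stromal median of 2.16 CPM and a ratio of 56.8 (49.0 to 66.3) against synoviocytes. In the RefSeq annotation of another horse assembly than that of the counts, CD80 overlaps TIMMDC1, and since no strand setting is stated for the counting, reads of the 2 genes may not be fully separated. MARCO, a collagenous scavenger receptor for bacteria and particles, was the least distinct from synoviocytes, at 0.22 to 0.974 CPM in the 11 synoviocyte libraries against 0.791 to 11.2 CPM in macrophages. Its ratio was 12.6 (9.4 to 17.1) against synoviocytes and 72.6 (38.0 to 159.0) against chondrocytes. The intervals cover counting error only.

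**Figure D1:**
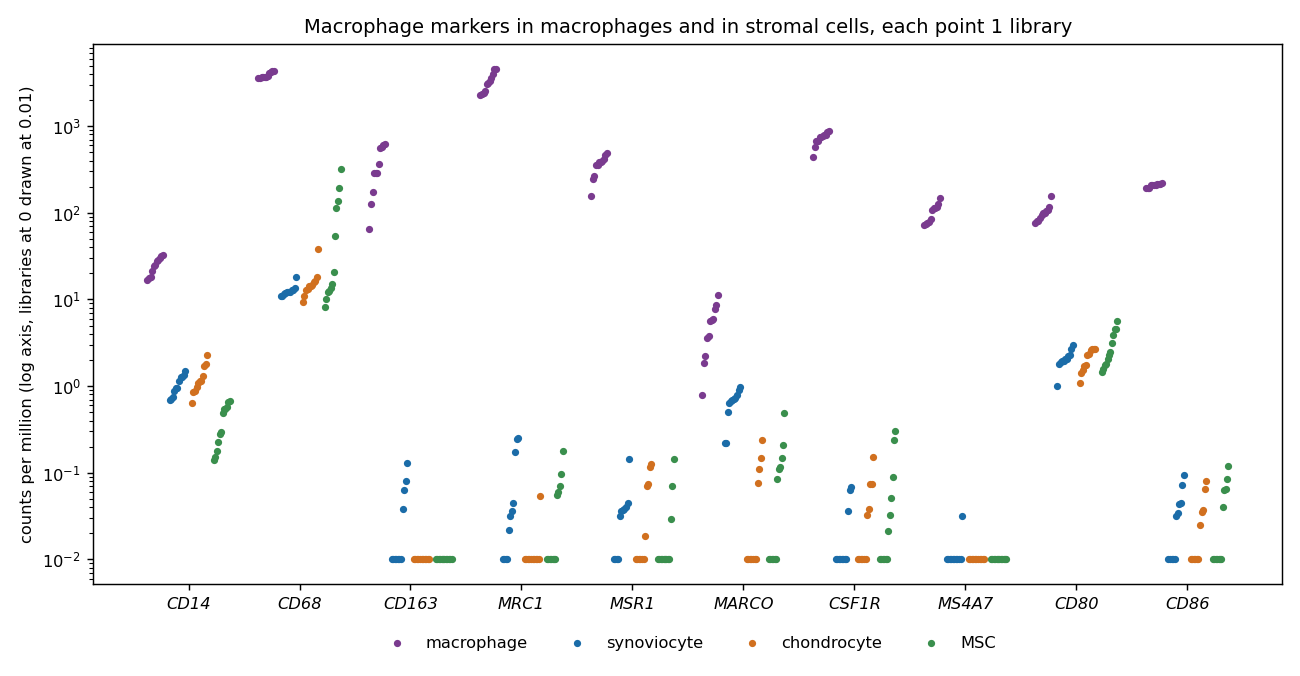
CPM of the 10 markers (log axis, libraries at 0 drawn at 0.01) in each library of macrophages, synoviocytes, chondrocytes and MSC, with 1 point per library. Macrophage libraries lie above all stromal libraries for every marker except MARCO, where the lowest macrophage library (0.791) lies within the synoviocyte range (0.22 to 0.974), and CD68 rises to 324 in 1 MSC library.

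The medium comparisons gave 0 calls over all genes without a term for the MSC donor. In edgeR's quasi-likelihood test at an adjusted p under 0.05, 0% of 15052 genes were called for TLR-MSC-CM against resting MSC-CM, 0% for STING-MSC-CM against resting MSC-CM and 0% for STING-MSC-CM against TLR-MSC-CM. At an unadjusted p under 0.05, 320, 717 and 994 genes passed (2.13%, 4.76% and 6.6%), among them 0, 1 and 2 of the 10 markers. DESeq2 called 0, 5 and 33 genes. Libraries with medium of the same donor deviated together from their group means, so the MSC donor was also entered as a block. With the block 0, 80 and 336 genes were called (0%, 0.531% and 2.23%), among them 0, 1 and 3 of the markers. The 3 comparisons share libraries, each group standing in 2 of them. The blocked values are given beside each marker whose call they changed.

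MS4A7 was the only marker called in both STING comparisons with the block, and without the block it did not pass in edgeR. With resting MSC-CM it stood at 114 (PC), 125 (ORC) and 112 (AG1) CPM, and with TLR-MSC-CM at 109, 117 and 149 CPM. With STING-MSC-CM it stood at 78.7, 75.8 and 72.9 CPM. All 3 STING libraries lay below all 6 others with medium, and the macrophages that had received no medium lay near them, at 84.2 CPM with cytokines only and 73.8 CPM with no addition. The means were 117 ± 7.15 CPM with resting, 125 ± 21.2 CPM with TLR and 75.8 ± 2.91 CPM with STING medium (SD, n = 3 each). Against resting medium the log2 fold change was -0.64 (SE 0.11), with an edgeR adjusted p of 0.907 without the block, 0.0185 with it and 0.00182 in DESeq2. Against TLR medium it was -0.67 (SE 0.11), with adjusted p of 0.404, 0.0136 and 0.000325. The exact two-sided permutation test gave 0.1 in both cases, the smallest p that 3 against 3 libraries allow. MS4A7 was lower in 3 of 3 donors in both comparisons. With 1 library left out, the blocked call against resting medium was lost in 5 of 9 cases (without STING ORC, STING AG1 or any of the resting libraries) and that against TLR medium in 2 of 9 (without STING ORC or STING AG1), while the log2 fold change stayed between -0.74 and -0.51. Without the TLR library of AG1 the blocked value against TLR medium was -0.51 (SE 0.08, adjusted p 0.0129).

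Other genes of the MS4A family gave little to set beside it. Of 12 looked up by symbol, 7 were found. The others could not be read, and 3970 genes are listed by Ensembl identifier in place of a symbol. Of the 7 only MS4A1 and MS4A2 had enough counts to be tested, and both lay under 3.19 CPM. They are genes of B cells and of mast cells. The medians of all genes tested were near 0 (0.01, -0.01 and -0.02 on the log2 scale for the 3 comparisons in the order above), those of the 10 markers -0.22, -0.13 and 0.15.

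MRC1 and CD163 passed the blocked test in the comparison of the 2 activated media. MRC1, the mannose receptor CD206, a lectin that takes up glycoproteins and microbes, had 3944, 2273 and 2522 CPM with resting medium of PC, ORC and AG1. It had 3582, 2425 and 2328 CPM with TLR medium and 4505, 4614 and 3111 CPM with STING medium. MRC1 was higher with STING than with either other medium in 3 of 3 donors, but the groups overlapped, since the AG1 STING library lay below the PC libraries of the other media. Against TLR medium its log2 fold change was 0.59 (SE 0.26, adjusted p 0.736, edgeR), and with the block 0.61 (SE 0.14, adjusted p 0.0438). Against resting medium it was 0.50 with the block (SE 0.14, adjusted p 0.135), and DESeq2 with the block called it (adjusted p 0.00777).

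CD163 had 367, 555 and 127 CPM with resting medium of PC, ORC and AG1. With TLR medium it had 288, 285 and 65.3 CPM, and with STING medium 288, 611 and 172 CPM. Within each group the AG1 library was the lowest, and the groups overlapped widely. The STING and TLR media of donor PC gave nearly equal levels, while those of ORC and AG1 differed by 1.1 and 1.38 on the log2 scale. Against TLR medium the log2 fold change was 0.77 (SE 0.66, adjusted p 0.811), and with the block 0.87 (SE 0.20, adjusted p 0.049). Against resting medium CD163 was lower with TLR medium in 3 of 3 donors, with a log2 fold change of -0.78 with the block (SE 0.20, adjusted p 0.775). The blocked calls of CD163 and of MRC1 were each lost in 7 of 9 cases when 1 library was left out. Both were lost without the ORC or AG1 library of either activated medium and without the PC or AG1 library of resting medium, which is in neither group, CD163 also without resting ORC and MRC1 without TLR PC. Without the TLR library of AG1 the blocked log2 fold changes were 0.67 for CD163 (SE 0.19, adjusted p 0.109) and 0.63 for MRC1 (SE 0.15, adjusted p 0.0589). They were also lost with the stricter filterByExpr filter (adjusted p 0.0607 and 0.0559), and in DESeq2 with the block that of CD163 was lost (0.0587).

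**Figure D2:**
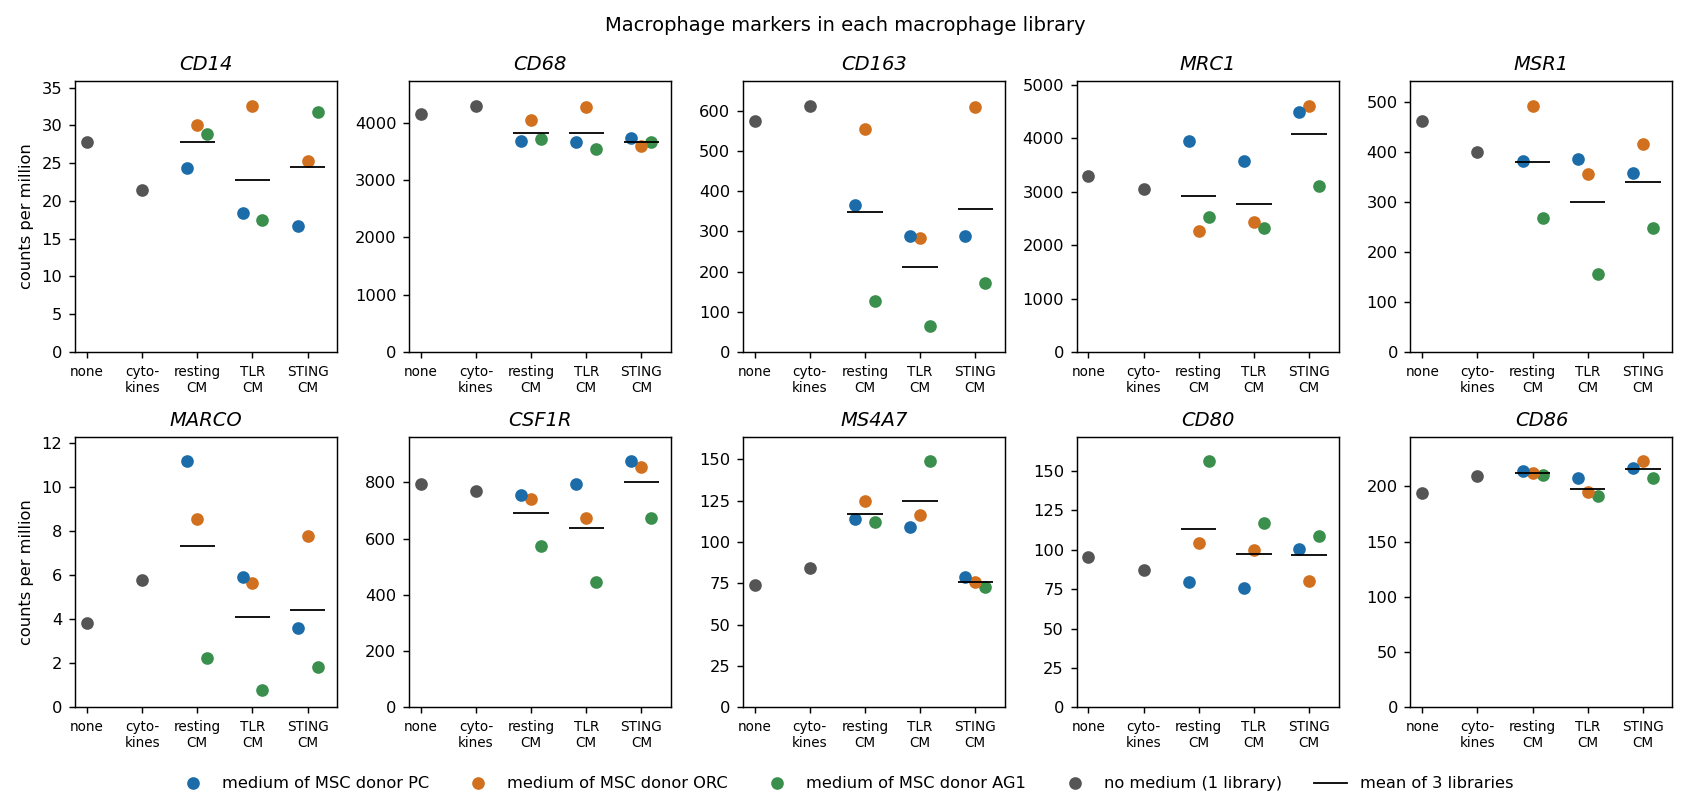
CPM of each marker in the 11 macrophage libraries by condition, coloured by the MSC donor of the medium, with the mean of 3 libraries as a line. MS4A7 lies at 72.9 to 78.7 in all STING libraries and at 109 to 149 in the other libraries with medium, and the AG1 library is the lowest of its group for CD163, MSR1, MARCO and CSF1R under every medium.

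CSF1R, the M-CSF receptor, had 756, 740 and 574 CPM with resting medium of PC, ORC and AG1. It had 794, 673 and 444 CPM with TLR medium and 875, 854 and 673 CPM with STING medium. It was higher with STING than with resting medium in 3 of 3 donors, by 0.21, 0.207 and 0.228 on the log2 scale, and the groups overlapped. The blocked log2 fold change was 0.20 (SE 0.10, adjusted p 0.43) against resting and 0.39 (SE 0.10, adjusted p 0.0706) against TLR medium, so that neither passed in edgeR. DESeq2 with the block called the latter (adjusted p 0.00431).

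The class A scavenger receptors did not pass in any medium comparison. MSR1, which binds modified lipoproteins and bacterial wall components, had 382, 493 and 268 CPM with resting medium of PC, ORC and AG1. It had 387, 357 and 157 CPM with TLR medium and 357, 416 and 248 CPM with STING medium. Its log2 fold change was -0.39 (SE 0.35) for TLR and -0.18 (SE 0.35) for STING against resting medium. MARCO had 11.2, 8.54 and 2.23 CPM with resting medium, 5.91, 5.64 and 0.791 CPM with TLR medium and 3.6, 7.77 and 1.85 CPM with STING medium. It was lower than with resting medium in 3 of 3 donors under both activated media, with blocked log2 fold changes of -0.97 (SE 0.28, adjusted p 0.775) for TLR and -0.71 (SE 0.29, adjusted p 0.312) for STING. The lowest library rests on 30 counts.

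CD14 and CD68 likewise did not pass. CD14 had 24.4, 30.1 and 28.9 CPM with resting medium of PC, ORC and AG1, 18.4, 32.6 and 17.5 CPM with TLR medium and 16.6, 25.2 and 31.7 CPM with STING medium. Its log2 fold changes against resting medium were -0.33 (SE 0.28) and -0.20 (SE 0.28). CD68 kept within 3541 to 4303 CPM over all 11 macrophage libraries, the single libraries without medium included, and its largest log2 fold change in the 3 comparisons was -0.07 (SE 0.13).

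The T cell ligands differed in their spread. CD86, the constitutive ligand of CD28, lay between 191 and 223 CPM in all 11 libraries. Its TLR libraries (208, 195 and 191 CPM) were all just below its resting libraries (214, 212 and 211 CPM), by -0.15 on the log2 scale (SE 0.09, adjusted p 0.998), and its STING libraries had 216, 223 and 208 CPM. CD80 had 79.5, 104 and 156 CPM with resting medium, 75.8, 99.5 and 117 CPM with TLR medium and 100.3, 80 and 109 CPM with STING medium, with log2 fold changes of -0.27 (SE 0.22) and -0.25 (SE 0.22) against resting medium. Of 10 markers, 1 had groups that did not overlap in each comparison, CD86 (lower with TLR than resting medium) and MS4A7 (lower with STING than either), against 6.4%, 10.1% and 12.8% of all genes tested.

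**Figure D3:**
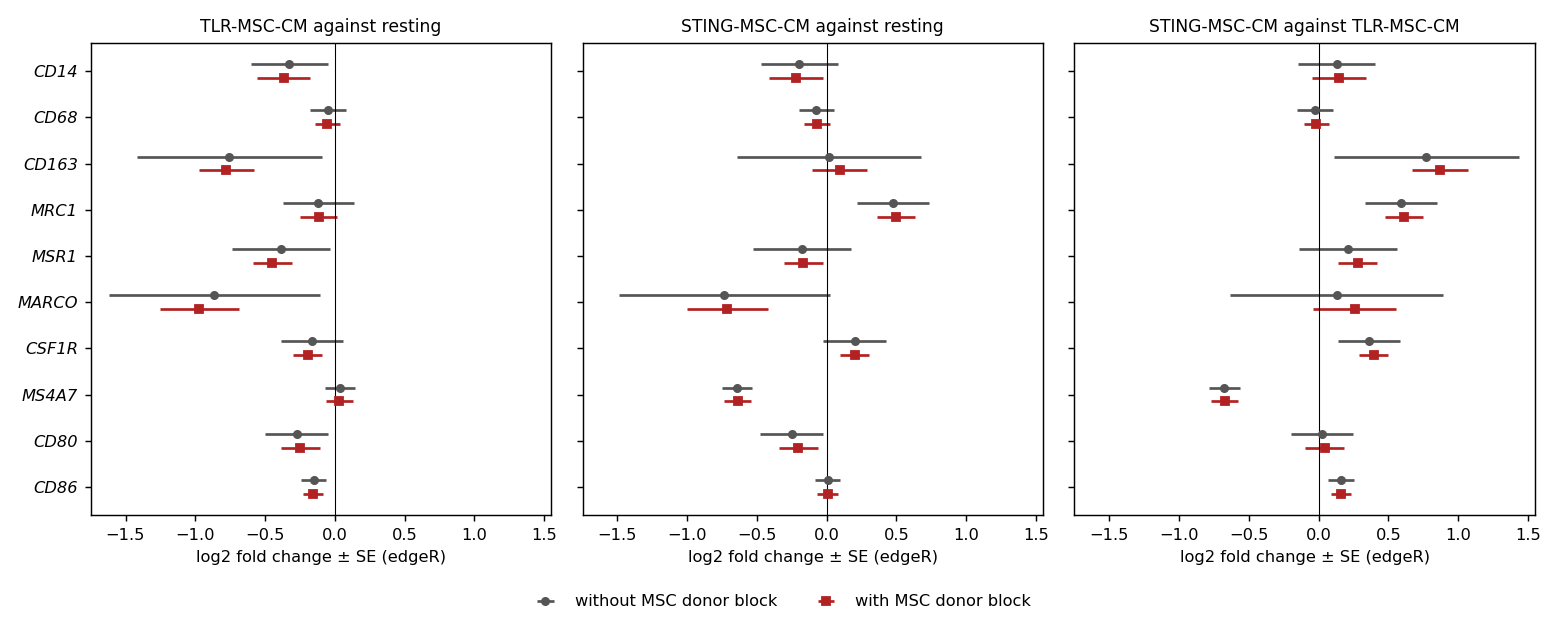
Log2 fold change with its standard error (edgeR) of each marker in the 3 medium comparisons, without and with the MSC donor as a block. The block narrows the error of CD163 from 0.66 to 0.20 in the right panel, and MS4A7 lies at -0.64 and -0.67 in both STING comparisons with either fit.

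Other genes of the same pathways were read from fixed lists. With the block, 2.23% of all 15052 genes tested were called for STING against TLR medium and 0.531% for STING against resting medium. Of 20 further macrophage markers, 0 passed without the block, and with it 2 were higher with STING than TLR medium, ADGRE1 and MERTK (log2 fold changes 1.08 and 0.68). MERTK is a receptor for the uptake of dead cells. Of 17 further scavenger and endocytic receptors tested, 2 were higher in that blocked comparison, CD36 and MRC2 (0.92 and 0.46). CD36 takes up oxidised lipoproteins and fatty acids. Among genes of the CSF1R pathway and its lineage factors, the transcription factor ZEB2 was higher (0.43). Of 11 partners and relatives of CD80 and CD86, PDCD1LG2, a ligand of the inhibitory receptor PD-1, was higher with STING than with either other medium (0.65 and 0.58), and CTLA4 was lower than with TLR medium (-0.63). Of 13 genes of the CD14 and TLR4 complex tested, TLR6 was higher (0.57) and TRAF6 lower (-0.32). Of 10 genes of haem and iron handling, 0 passed with or without the block, and HMOX1, the haem-degrading enzyme, lay between 1120 and 2082 CPM. The genes named here from the lists, HMOX1, ZEB2 and TRAF6 excepted, were named after their values were seen. In the same blocked comparison CD5 of the T cell list and THY1 of the stromal list were lower with STING medium (-0.46 and -1.02), and LAMP3, a marker of mature dendritic cells, and DCSTAMP, a fusion protein of osteoclasts and dendritic cells, were higher (0.54 and 0.48). Of the 14 listed genes other than the 10 markers that passed in this blocked comparison, 3 passed without the TLR library of AG1, namely MERTK, CD36 and PDCD1LG2 (log2 fold changes 0.62, 0.82 and 0.62, adjusted p 0.0384, 0.0367 and 0.00434), and 166 genes in all were called in place of 336. Against resting medium 339 genes were called in place of 80, and all 80 were among them. The 2 listed genes beside the markers among these 80, PDCD1LG2 and LAMP3, passed there as well (adjusted p 0.00116 for PDCD1LG2). Both were higher with STING than with resting medium. The 13 T and NK cell markers without CD4 summed to 556 to 619 CPM with STING and 576 to 949 CPM with TLR medium, while CD4 itself had 292 to 543 and 223 to 478 CPM. The part of other cells in these changes was not tested.

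More of the markers were called between the donors of the medium than between its kinds. Over the 9 libraries with medium, a test of any difference among PC, ORC and AG1 (edgeR with the kind of medium as a term, added after the values were seen) called 2322 of 15052 genes, or 15.4%, and 5 of the 10 markers. All 5 had their lowest fitted level with medium of AG1, as did 1170 of the 2322 genes, while 975 had their highest. CD163 had 65.3 to 172 CPM with AG1 medium, against 288 to 367 CPM with PC and 285 to 611 CPM with ORC medium, and 576 and 613 CPM without medium. The 3 AG1 libraries lay below all 8 others. Its log2 difference was 2.08 for ORC and 1.53 for PC over AG1 (adjusted p 0.000439). MARCO had 0.791 to 2.23 CPM with AG1 medium and 3.6 to 11.2 CPM with the other 2, with log2 differences of 2.31 and 2.13 (adjusted p 0.00141).

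MSR1 had 157 to 268 CPM with AG1 medium and 357 to 493 CPM with the other 2, with log2 differences of 0.99 and 0.82 (adjusted p 0.0022). CSF1R had 444 to 673 CPM with AG1 medium, and its ranges met those of ORC (673 to 854 CPM), with log2 differences of 0.50 and 0.58 (adjusted p 0.00689). MRC1 had overlapping ranges, with log2 differences of 0.24 for ORC and 0.65 for PC over AG1 (adjusted p 0.0185). Leaving out any of the 9 libraries kept the calls of CD163, MARCO, MSR1 and CSF1R, and that of MRC1 was lost without the PC library of resting or of TLR medium. CD80 went the other way, with log2 differences of -0.35 and -0.52, and did not pass (adjusted p 0.0549). CD14, CD68, MS4A7 and CD86 did not pass, with adjusted p from 0.11 to 0.797.

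**Figure D4:**
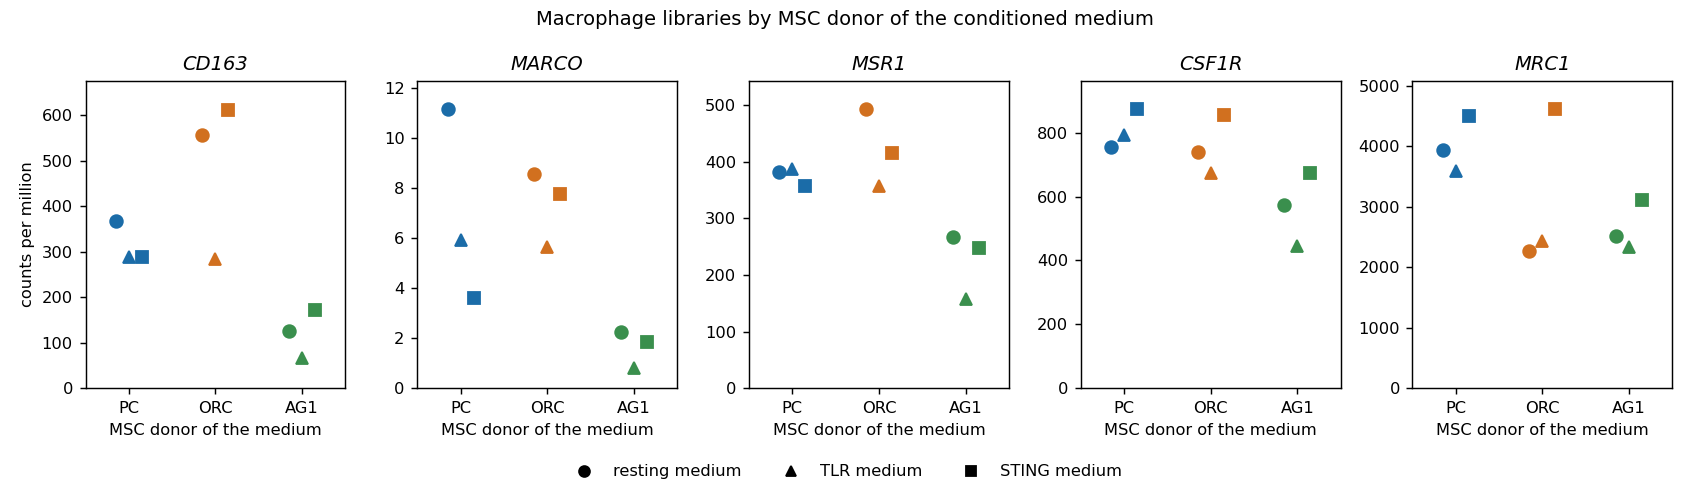
CPM of the 5 markers called between donors, for the MSC donor of the medium (x axis) and the kind of medium (symbol), with 1 point per macrophage library. For CD163, MARCO and MSR1 all 3 AG1 libraries lie below all 6 libraries of PC and ORC, at 65.3 to 172, 0.791 to 2.23 and 157 to 268.

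Genes of other lists were called between donors too, in directions that differed by list. Of 20 further macrophage markers 9 were called and 9 were lowest with AG1, among them MERTK (33 to 58.9 CPM with AG1 and 66.5 to 121 CPM with the other 2) and the complement genes C1QB and C1QC. Of 17 further scavenger receptors 6 were called, and 5 of them were lowest with AG1. They included CD163L1, a relative of CD163 (6.33 to 12.1 CPM against 25.6 to 86.8 CPM), and CD5L, a secreted scavenger protein (1.91 to 6.26 CPM against 15.7 to 31.6 CPM). Of 11 partners and relatives of CD80 and CD86, 7 were called. The ligands ICOSLG and PDCD1LG2 were lowest with AG1, and CD40, CD83 and TNFSF4, activation markers of antigen-presenting cells, were highest (CD40 at 210 to 315 CPM against 127 to 166 CPM). Of 16 genes of the CSF1R pathway and its lineage factors, 9 were called, 4 of them lowest with AG1, ZEB2 included, and 5 highest, among them CSF1, which encodes the ligand M-CSF. Of 13 genes of the CD14 and TLR4 complex, 7 were called, with 5 lowest and 2 highest, LY96 and IRAK1. Of 10 genes of haem and iron handling, 5 were called, 4 lowest and 0 highest with AG1, and of 8 osteoclast genes 4, with 2 lowest and 1 highest. Markers of other cells were called in 2 of 8 dendritic, 1 of 6 neutrophil, 2 of 14 T and NK, 0 of 7 B cell and 0 of 11 stromal genes tested, against the 15.4% of all genes. The called genes were CCR7, CD1A1, CSF3R and NKG7, highest with AG1, and CD4, lowest. Summed over 10 dendritic cell markers the level was 389 to 512 CPM with AG1 and 196 to 308 CPM with the other 2, led by CCR7 (270 to 395 CPM with AG1), while CLEC9A was at 0 in every macrophage library. The sum of 6 neutrophil markers was 572 to 592 CPM with AG1 and 283 to 470 CPM otherwise, nearly all of it CSF3R, with MPO at most 0.639 CPM. Their part in the lower marker levels was not tested. The donor of the medium and any well or plate it was given in cannot be told apart here.

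CD163, MSR1 and CSF1R varied together over the 9 libraries with medium, with Pearson correlations of log2(CPM + 1) of 0.957 between CD163 and MSR1 and 0.871 between CD163 and CSF1R. CD163 and CD80 gave -0.65. These are descriptions, since the libraries share donors and media. Over all 11 macrophage libraries and 10964 genes of at least 1 CPM in each, the patterns most like that of CD163 were those of ENSECAG00000039645 (0.991), RAB3IL1 (0.973) and MILR1 (0.972). Those most like MSR1 were LAIR1 (0.988), SLC11A1 (0.985) and RAB3IL1 (0.972), and those most like CD80 were PLOD3 (0.944), C1H15orf48 (0.929) and REXO4 (0.911).

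Whether the markers responded to medium in macrophages otherwise than in stromal cells could be tested for few of them. In a fit over all 3 joint cells, 0% of 16584 genes differed in their change with TLR-MSC-CM and 0% in their change with STING-MSC-CM (edgeR, adjusted p under 0.05). At an unadjusted p under 0.05, 615 and 811 genes passed, with 0 of the markers in either, and with the block 0 and 31 genes were called, again with 0 markers. DESeq2 was not run on this comparison. For CD163, MS4A7, MRC1, MSR1, CSF1R and CD86 the stromal counts are too few to carry such a comparison. For CD14, CD68 and CD80 the log2 fold change in macrophages minus the mean of the stromal joint cells was -0.59 (SE 0.41), 0.07 (SE 0.29) and -0.39 (SE 0.29) with TLR medium. With STING medium the differences were -0.39 (SE 0.42), -0.31 (SE 0.29) and -0.36 (SE 0.29). For MARCO the difference was -0.81 (SE 1.16) with TLR and -0.18 (SE 1.94) with STING medium.

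CD68 was the marker with a wide range inside the stromal cells, and this range lay in the MSC themselves. Untreated MSC of the donors PC, 99 and 92 had 12.2, 14.9 and 12.7 CPM. After the TLR3 agonist they had 138, 114 and 10 CPM, and after the STING agonist 195, 324 and 53.3 CPM. Libraries labelled CpG had 13.5, 20.5 and 8.28 CPM. CD68 was thus above the untreated cells of the same donor in 3 of 3 donors after the STING agonist and in 2 of 3 after the TLR3 agonist, the exception being donor 92. The log2 fold change was 3.85 (SE 0.97) for the STING and 2.80 (SE 0.93) for the TLR3 agonist. In edgeR the unadjusted p was 0.00372 and 0.0156, against 2.1% and 1.15% of 14872 genes at an unadjusted p under 0.05, and the adjusted p was 1 in both. DESeq2 gave adjusted p of 0.00157 and 0.18, and edgeR with the donor as block 0.119 and 1. The comparison was added after the values were seen. The same MSC had no count of CD163 or MS4A7 in any of 12 libraries, and CD14 stayed at 0.14 to 0.665 CPM. Among chondrocytes, the library with STING-MSC-CM of AG1 had 38.3 CPM of CD68 and the other 10 between 9.42 and 18 CPM.

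**Figure D5:**
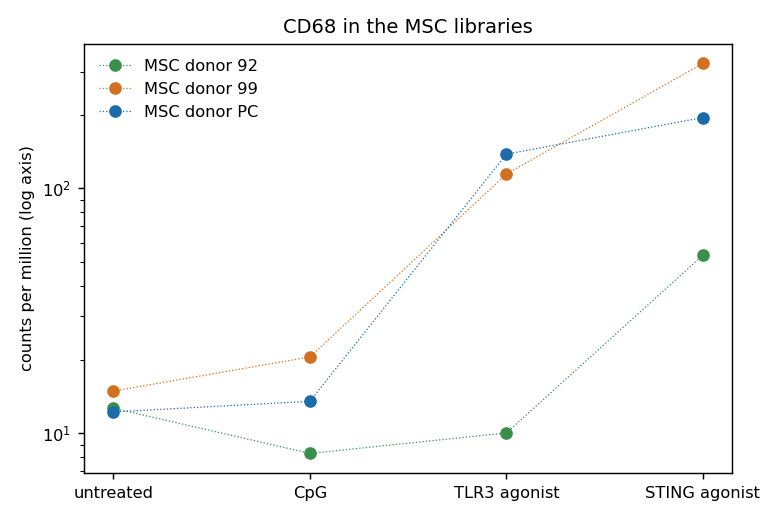
CPM of CD68 (log axis) in the 12 MSC libraries by treatment, with points of 1 donor joined by a dotted line. After the STING agonist the 3 donors lie at 53.3 to 324, against 12.2 to 14.9 untreated, and donor 92 stays at 10 after the TLR3 agonist.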

How the data were processed

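The deposited values are raw read counts per gene. As far as the labels and methods say, the authors used Cutadapt (version 1.12) for trimming, STAR for alignment to EquCab3.0 and HTSeq (version 0.11.0) for counting on Ensembl genes, of which the protein coding ones are listed. The strand setting is not given in the sources used here. The 41 highest values are written with few digits. CPM are counts divided by the library's total. Genes reaching 10 counts in total in a fit entered edgeR 4.0.16 (TMM scaling, quasi-likelihood test, Benjamini-Hochberg adjustment) in R 4.3.3, with groups from the labels. DESeq2 1.42.0, other scaling and filters, single libraries left out and the MSC donor as replicate block were alternatives. The medium and its donor pair the macrophage libraries, whose same-donor deviations correlated at 0.339 to 0.573. In synoviocytes the same-donor values ran from -0.382 to 0.359, and in chondrocytes from 0.57 to 0.892. The median between donors was -0.233 in macrophages. Subtracting the mean over donors in each medium lowers the values between donors, so this median is no separate support for the pairing. The fits were also run on simulated data, as a check that they recover set changes. The donor differences drawn there were smaller than those of CD163 and MARCO, so this check bears on no call above. The members and the 13 other lists (153 of 175 genes in the table) were chosen with earlier results of these data known. From each list, genes passing the test and then the most abundant were to be named, and other names were chosen after their values were seen. Intervals are 95% and cover counting error only.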

Additional observations from a re-analysis of the deposited data

How the results depend on the processing

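Between STING-MSC-CM and resting MSC-CM the number of markers called was 0 and became 1 with the MSC donor as replicate block and 1 with DESeq2. Against TLR-MSC-CM it was 0 and became 3 with the replicate block and 1 with DESeq2. In the fit with the MSC donor block, leaving out single libraries gave 0 to 1 called markers against resting MSC-CM and 0 to 3 against TLR-MSC-CM, filterByExpr gave 1 against TLR-MSC-CM, and DESeq2 with the block gave 2 against resting MSC-CM. These variations of the blocked fit were chosen after seeing the data. The calls between macrophages and stromal cells (10 of 10) held under all 17 alternatives each, the number of markers called between MSC donors stayed within 1.5 times of 5, and the replicate block changed no other call. CD68 in MSC after the STING agonist passed with DESeq2. Log2 fold changes of a sign other than the reported one occurred in 62 of 1872 values, 0 of them called. Media of 3 MSC donors on macrophages of 1 horse limit the precision, and MARCO rests on 30 to 420 counts per macrophage library.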

Other observations

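TLR4, the receptor that CD14 serves, was listed at 0 counts in all 11 macrophage libraries. No synoviocyte or chondrocyte library had more than 0.0326 CPM of TLR4, so the lack of counts was not particular to macrophages. Whether it reflects little transcript or the annotation used for counting was not tested. LY96, the partner of TLR4 at the cell surface, lay between 27.1 and 42.3 CPM in the macrophage libraries. Of genes used as marks of tissue macrophages, VSIG4 (0 to 0.371 CPM) and LYVE1 (0 to 0.425 CPM) were near the floor in the same libraries, while SIGLEC1 (486 to 1262 CPM), MERTK (33 to 121 CPM), C1QB (10.8 to 48.6 CPM) and C1QC (13.2 to 55.9 CPM) were detected in all of them. ITGAM, which encodes CD11b, lay between 3.59 and 5.65 CPM, and ITGAX, which encodes CD11c, between 2813 and 3593 CPM. MMP9, a gelatinase of osteoclasts and of other myeloid cells, lay between 13949 and 25493 CPM.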
